A study of Mus musculus with 6 samples.

Results

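NONMMUT110310.1 is a long non-coding RNA (lncRNA) of the NONCODE catalogue, listed on chromosome 2 from 173049287 to 173050935 and labelled intergenic, with no strand and no gene tied to it. It was 1 of 24817 features in the deposited table, and the 7 other features listed within 200 kb of it were read with it as its neighbourhood. It was selected because it differed between the study's groups, so that difference is given below as a description, without a test, whereas the neighbours were taken by position alone.

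RNA was sequenced from RAW264.7 cells, a mouse macrophage line, labelled as taken from the abdominal cavity, in 2 groups of 3 libraries. All 6 libraries came from cells exposed to lipopolysaccharide (LPS), a bacterial cell wall component, for 24 h, after which the medium was exchanged for an extract of bone cement. In LPS_ES_PMMA the cement was polymethyl methacrylate (PMMA) made with the anticoagulant enoxaparin sodium, a short-chain heparin. In LPS_PMMA the titles and treatment labels name plain PMMA, while the descriptions and table columns of the same libraries name LPS alone. No group without LPS and no group without extract was analysed here. Neither the time in extract nor whether each library had a culture of its own is given in the labels, so each p-value measures the spread among these libraries only, and that spread may be technical. Column totals were 1123551 to 3261653 reads in LPS_ES_PMMA and 2877523 to 3697638 in LPS_PMMA. The table holds lncRNAs, so the protein-coding markers of macrophages were not analysed here. MSTRG.25685.1 is a transcript listed as antisense to Adgre1, a gene widely used as a macrophage surface marker. It held 33.4 to 44.8 CPM (reads per 1e+06 after TMM scaling) in LPS_ES_PMMA, against 50.2 to 62.2 CPM in LPS_PMMA. Its groups did not overlap, as in 30.8% of all tested features, and it did not pass (log2 fold change -0.55, adjusted p from edgeR = 0.238). It was assembled from reads, and the coordinates of such transcripts differ in kind, as described below, so its tie to Adgre1 may be wrong. The other macrophage feature tested, NONMMUT039756.2 on an exon of the efferocytosis receptor gene Mertk, had 10 to 20 reads in LPS_ES_PMMA, against 2 to 7 in LPS_PMMA (log2 fold change 1.22, adjusted p from edgeR = 0.164). Another Adgre1 feature, NONMMUT030162.2, had too few reads to be tested, with 2, 0 and 2 in LPS_ES_PMMA and no reads in LPS_PMMA. Only 2 of 8 macrophage genes and 1 of 6 genes of other cells had a listed feature. A pair of features tied to the T cell gene Cd3e held 0 to 4 reads in any library. The part of these markers in the results below was not tested.

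The listed place of NONMMUT110310.1 is read against the gene Zbp1, which is annotated 155677 bp away. Zbp1 would cover it if an offset found elsewhere on chromosome 2 also held there, but the offset at the feature was not measured. Zbp1 encodes a sensor of left-handed (Z-form) nucleic acids. It is induced by interferon, and through the kinase RIPK3 it can set off necroptosis, in which the pseudokinase MLKL breaks the cell membrane, and other forms of inflammatory cell death. In macrophages, LPS raises interferon-induced genes through Toll-like receptor 4, its adaptor TRIF and secreted interferon beta.

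NONMMUT110310.1 was abundant in LPS_PMMA and low in LPS_ES_PMMA. It held 12, 3 and 4 reads in LPS_ES_PMMA 1, 2 and 3, and 292, 284 and 289 reads in LPS_PMMA 1, 2 and 3. Scaled to library size, these were 2.91, 1.52 and 1.35 in LPS_ES_PMMA, against 144, 112 and 104 in LPS_PMMA. All libraries of LPS_ES_PMMA were low and all of LPS_PMMA were high, with no overlap and with a gap of 35.8-fold between the lowest LPS_PMMA and the highest LPS_ES_PMMA library. The means were 1.93 ± 0.859 CPM in LPS_ES_PMMA and 119.9 ± 20.8 CPM in LPS_PMMA (SD, n = 3 each). The fitted log2 fold change was -5.87 (SE 0.40), and 9 of the 8873 features that passed the filter on low counts had a lower one. A lower level here can mean fewer cells making the RNA or less of it per cell, which cannot be told apart in bulk RNA.

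**Figure D1:**
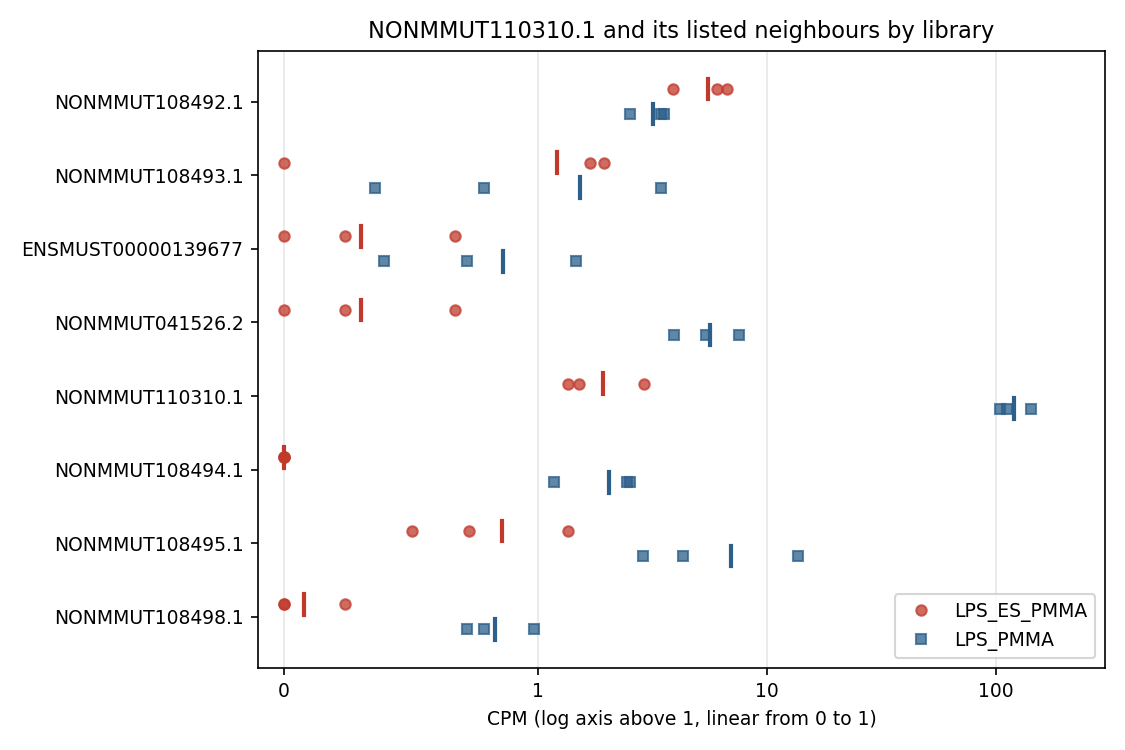
CPM of NONMMUT110310.1 and its 7 listed neighbours in each library, in order of position, with LPS_ES_PMMA as circles, LPS_PMMA as squares and the mean of 3 libraries as a bar; the axis is linear from 0 to 1 and logarithmic above. NONMMUT110310.1 lies between 1.35 and 2.91 CPM in LPS_ES_PMMA and between 104 and 144 CPM in LPS_PMMA.

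On the authors' per-length scale the feature had 3.45, 1.57 and 1.20 FPKM (fragments per kilobase and per 1e+06 reads) in LPS_ES_PMMA, against 84.4, 88.6 and 96.5 FPKM in LPS_PMMA. The means were 2.07 ± 1.21 FPKM in LPS_ES_PMMA and 89.8 ± 6.16 FPKM in LPS_PMMA (SD, n = 3 each). The authors' deposited table calls it down, at a log2 fold change of -5.44 between the FPKM means. By FPKM it ranked between 7248 and 11251 among all listed features in the LPS_ES_PMMA libraries, and between 215 and 242 in the LPS_PMMA libraries. It therefore belonged to the more abundant lncRNAs of the table in LPS_PMMA and to the middle of the list in LPS_ES_PMMA.

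The order of the 6 libraries by CPM was LPS_ES_PMMA 3, 2 and 1, then LPS_PMMA 3, 2 and 1. Within LPS_ES_PMMA the counts were too few to rank the libraries, since their intervals overlapped. The exact 95% Poisson interval, which covers counting error only, was 0.619 to 8.77 for the 3 reads of LPS_ES_PMMA 2 and 1.09 to 10.2 for the 4 reads of LPS_ES_PMMA 3, and it began at 6.20 for the 12 reads of LPS_ES_PMMA 1. Within LPS_PMMA the raw counts agreed more closely than the scaled values, with a coefficient of variation of 1.40% in counts and 17.4% in CPM, so most of the spread in CPM came with the scaling of the libraries. The coefficient in CPM was 44.6% in LPS_ES_PMMA. The median over all tested features was 29.0% in LPS_ES_PMMA and 30.5% in LPS_PMMA. The TMM factors differ with group, 0.983 to 1.82 in LPS_ES_PMMA and 0.559 to 0.977 in LPS_PMMA; without factors the log2 fold change was -5.09, where that of the median feature was 0.82, so the difference from the median was about as large (-5.91 against -5.90).

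**Figure D2:**
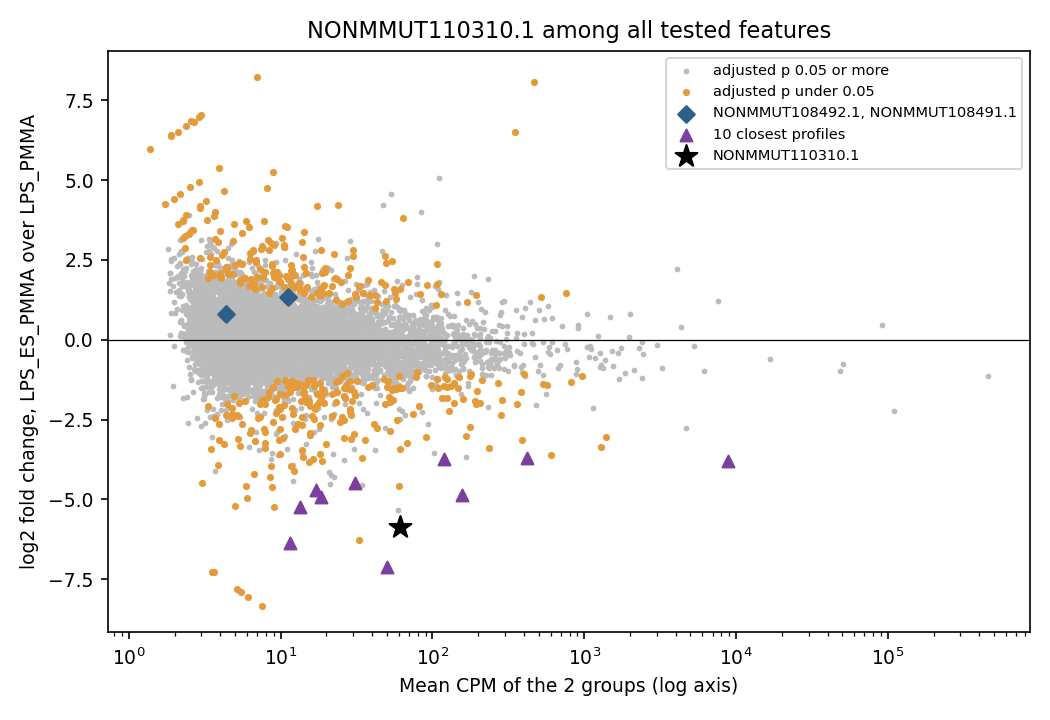
Log2 fold change (LPS_ES_PMMA over LPS_PMMA) against the mean CPM of both groups on a log axis, 1 point per tested feature (n = 8873), with features of adjusted p under 0.05 in orange. The star is NONMMUT110310.1 at -5.87, triangles are the 10 features with the closest profiles and diamonds are NONMMUT108492.1 and NONMMUT108491.1.

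The submitters' processing notes name the build mm10. In its GENCODE M21 annotation no gene overlaps the listed interval. It lies between Rbm38, an RNA-binding protein gene that ends 14553 bp below it, and Ctcfl, a paralogue of the chromatin insulator gene Ctcf that starts 42674 bp above it. Zbp1 lies on the minus strand from 173206612 to 173218923, 155677 bp above the feature, and no listed feature overlaps it there. The feature spans 1649 bp and has a listed length of 773 nt, so the table treats it as spliced, but exon positions are not given.

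The coordinates of the table are not all of 1 kind. Of 204 Ensembl transcripts listed on chromosome 2, 203 had the start and end of the mm10 annotation. Transcripts that the authors assembled from reads (MSTRG) instead met mm10 exons at an offset. Of 41 assembled transcripts listed from 150 Mb up to NONMMUT110310.1, 10 met an exon edge at exactly -158080 bp, while no offset more than 1 bp from this value was met by more than 3. Both ends of 3 transcripts matched an annotated transcript at that offset, those of BC029722, Spata2 and Gm14275, and the last of these is listed 916847 bp below NONMMUT110310.1. Above the feature, the nearest such match is 8111409 bp away (Dnajc5) and has another offset, -358207 bp. The offset at the feature itself was therefore not measured, and no assembled transcript is listed within 200 kb of it.

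Moved by -158080 bp, Zbp1 would run from 173048532 to 173060843 and would contain the whole interval of NONMMUT110310.1. The interval would stay inside the gene for any offset between -167988 and -157325 bp. At -158080 bp it would hold exon 7 of the 8 exons of the main Zbp1 transcript, 178 bp of coding sequence, and intron on either side. Whether the reads counted for NONMMUT110310.1 came from Zbp1 was not tested, since the table holds no read sequences and GRCm39 gene models were not used here. The exon is printed because it is the only coding sequence of that transcript that the interval would hold at this offset. It lies at chr2:173207742-173207919 on the minus strand of GRCm38 and is given 5′ to 3′ in the sense of the gene, from the GENCODE M21 transcript ENSMUST00000029018.
Zbp1 exon 7: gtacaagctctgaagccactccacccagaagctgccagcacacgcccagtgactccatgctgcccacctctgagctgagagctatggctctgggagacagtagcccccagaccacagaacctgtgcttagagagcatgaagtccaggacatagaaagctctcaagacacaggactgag

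**Figure D3:**
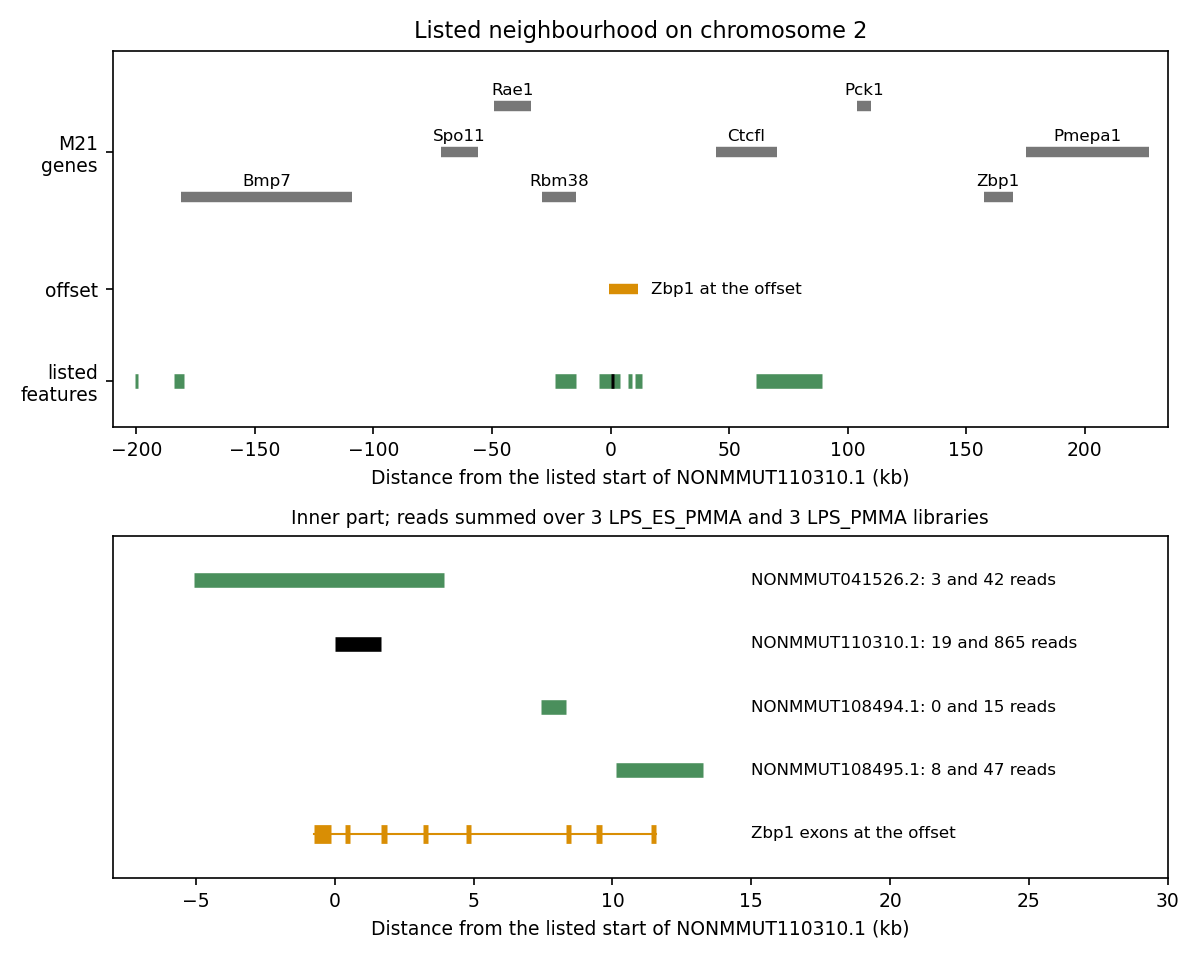
Listed features (green, NONMMUT110310.1 in black), protein-coding genes of the mm10 annotation (grey) and Zbp1 moved by -158080 bp (orange), against distance in kb from the listed start of NONMMUT110310.1. The lower panel enlarges the features that would overlap Zbp1, with reads summed over the 3 LPS_ES_PMMA and the 3 LPS_PMMA libraries; NONMMUT110310.1 held 19 and 865 reads.

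The neighbours were read to see whether the surroundings of NONMMUT110310.1 moved with it. The features closest to it were low in the same libraries, and those farther away were not all so. The groups did not overlap in 4 neighbours that were lower in LPS_ES_PMMA and in 1 that was higher, under each of 4 scalings of the libraries. Over all 24817 listed features, 8.31% were lower without overlap and 11.1% were higher with TMM scaling. These shares are not given for the other scalings. Most neighbours held few reads: 1 of the 7 passed the filter on low counts and did not pass the test, against 4.76% called over all tested features at a Benjamini-Hochberg adjusted p under 0.05 in the quasi-likelihood test of edgeR (2.58% lower in LPS_ES_PMMA). In the same fit without the filter, 1 of the 7 passed, against 0.701% of all listed features (0.443% lower in LPS_ES_PMMA). It was NONMMUT041526.2, which covers the listed interval of NONMMUT110310.1, so its call may follow from the selection of that feature.

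NONMMUT041526.2 (173044203 to 173053227) spans NONMMUT110310.1 as listed, so the reads of both may be shared between them. It held 1, 0 and 2 reads in LPS_ES_PMMA, against 11, 10 and 21 in LPS_PMMA. All LPS_PMMA libraries lay above all LPS_ES_PMMA libraries. In edgeR without the filter its log2 fold change was -3.92, with an SE of 0.74 and an adjusted p of 0.0496. Since it covers the interval of the selected feature, this call may follow from that selection and is no independent support. That call also passed in DESeq2 (adjusted p = 0.0128) and with library totals implied by FPKM (0.0416). In the unfiltered edgeR fit it was lost whichever of the 6 libraries was left out, a check added after the values were seen, with adjusted p of 0.0613 to 0.133. Per length it was far less abundant than NONMMUT110310.1, with 0.186 ± 0.189 FPKM in LPS_ES_PMMA and 2.79 ± 1.40 FPKM in LPS_PMMA (SD, n = 3 each).

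NONMMUT108494.1 (173056702 to 173057630), the nearest feature above, held no reads in LPS_ES_PMMA, against 5, 3 and 7 in LPS_PMMA. Against a floor of 3 reads over the LPS_ES_PMMA group it was at least 6.17-fold lower, with the LPS_PMMA reads taken as observed and without their counting error. It did not pass (adjusted p from edgeR without the filter = 0.134). NONMMUT108495.1 (173059422 to 173062557) held 3, 1 and 4 reads in LPS_ES_PMMA, against 28, 11 and 8 in LPS_PMMA, and LPS_PMMA 1 stood well above the other libraries. In the unfiltered edgeR fit its log2 fold change was -2.87, with an SE of 0.72 and an adjusted p of 0.129, which did not pass. Among the neighbours, the authors' deposited table labels only NONMMUT041526.2, NONMMUT108494.1 and NONMMUT108495.1, all as down (q-values of the authors' edgeR 0.00548, 0.0546 and 0.0746). Of all 24817 listed features, it labels 618 down and 1075 up. As q-values of 0.0546 and 0.0746 carry a label, the labels do not require a q-value under 0.05.

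These 3 features are the neighbours that would overlap Zbp1 at -158080 bp. NONMMUT041526.2 would hold exons 5 to 8 whole, NONMMUT108494.1 would reach 34 bp into 1 exon and NONMMUT108495.1 would hold exon 1. Their summed reads were 4, 1 and 6 in LPS_ES_PMMA, against 44, 24 and 36 in LPS_PMMA. As CPM the sums averaged 1.17 ± 0.776 in LPS_ES_PMMA and 14.7 ± 6.27 in LPS_PMMA, 12.6-fold higher in LPS_PMMA (SD, n = 3 each) and 7.81-fold with column totals. NONMMUT041526.2, which may share reads with the selected feature, is part of these sums, so they are not independent of that selection. The other 4 neighbours together averaged 7.16 ± 1.68 CPM in LPS_ES_PMMA and 6.39 ± 2.62 CPM in LPS_PMMA. In LPS_ES_PMMA most of that sum is NONMMUT108492.1, with 5.57 CPM. It had 3.17 CPM in LPS_PMMA, while the other 3 each had a lower mean in LPS_ES_PMMA. With column totals the sum of the 4 was 9.15 ± 1.39 reads per 1e+06 in LPS_ES_PMMA and 4.54 ± 0.524 in LPS_PMMA, and the mean of NONMMUT108493.1 was then higher in LPS_ES_PMMA. The neighbours were split in this way after their values had been seen, so no test is given.

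Of those 4, NONMMUT108498.1, antisense to Ctcfl, held 1, 0 and 0 reads in LPS_ES_PMMA, against 2 in each LPS_PMMA library. ENSMUST00000139677 (173025685 to 173034580), antisense to Rbm38 and the nearest feature below, held 1, 0 and 2 reads in LPS_ES_PMMA, against 3, 1 and 2 in LPS_PMMA. NONMMUT108493.1, antisense to Bmp7, the gene of a bone morphogenetic protein, held 8, 0 and 5 reads in LPS_ES_PMMA, against 7, 2 and 1 in LPS_PMMA. These 3 are also the only listed features tied to any of the 8 genes chosen from around Zbp1, and none passed the filter. At such counts a difference was not detectable in any of them, with adjusted p from edgeR without the filter of 0.452, 0.673 and 0.971. Moved by -158080 bp like Zbp1, other genes would lie over these features. NONMMUT108498.1 would meet Pmepa1 and Pmepa1os, NONMMUT108493.1 would meet Rbm38 and Gm14453, NONMMUT108492.1 would meet Rae1, and ENSMUST00000139677 would meet none. Counting without regard to strand would mix antisense reads with those of the opposite gene; the sources used here do not give the strand setting.

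NONMMUT108492.1, at the lower edge of the window (199916 bp away), held 16, 12 and 20 reads in LPS_ES_PMMA, against 7, 9 and 7 in LPS_PMMA. Its groups did not overlap, as in 30.8% of all tested features, and edgeR gave a log2 fold change of 0.79 with an SE of 0.40 and an adjusted p of 0.293, which did not pass. NONMMUT108491.1, just outside the window at 200814 bp, held 67, 27 and 54 reads in LPS_ES_PMMA, against 12, 17 and 18 in LPS_PMMA. edgeR put its rise at 1.33 on the log2 scale, with an SE of 0.27 and an adjusted p of 0.0376. That call was lost whichever of the 6 libraries was left out, with an edgeR adjusted p of up to 0.152, and in 4 of the other 8 alternatives. The authors' deposited table labels NONMMUT108491.1 up (q-value of the authors' edgeR 0.162), 1 of 1075 features with that label. Both lie about as far from NONMMUT110310.1 as the window reaches, and both were higher in every LPS_ES_PMMA library. On the other side the nearest feature outside the window, NONMMUT108505.1, held no reads in LPS_ES_PMMA, against 13, 0 and 5 in LPS_PMMA.

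Summed over all 7 neighbours, the reads were 30, 13 and 33 in LPS_ES_PMMA, against 63, 38 and 48 in LPS_PMMA. In CPM the sums were 7.29, 6.59 and 11.12 in LPS_ES_PMMA, against 30.97, 14.95 and 17.33 in LPS_PMMA. The groups did not overlap, and the exact two-sided permutation p was 0.1, the smallest that 3 against 3 libraries allow. The log2 ratio was -1.34, and -0.53 with column totals. It was -3.40 for the 5 neighbours within 100 kb and -0.29 (exact permutation p = 0.6) for the 10 within 500 kb. The groups overlapped in the widest window. Each of these sums includes NONMMUT041526.2, which covers the listed interval of NONMMUT110310.1 and may share its reads. It gave 3 reads in LPS_ES_PMMA and 42 in LPS_PMMA. No sum without it is given, so the permutation p does not test the surroundings apart from the selected feature.

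Features elsewhere in the genome were then ranked by how closely their profile over the 6 libraries followed that of NONMMUT110310.1. The measure was the Euclidean distance between log2(CPM + 1) profiles, each centred on its own mean, over 8871 tested features outside the neighbourhood. The 10 closest had distances of 1.35 to 2.24, where the median feature had 6.77. A fall of like size between the groups is enough to bring a feature close, and these features were chosen from the same contrast, so they receive no test.

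The closest was MSTRG.41311.1 (chromosome 4, 145000708 to 145007452), listed in an intron of Vps13d, a gene for a lipid transfer protein. It had 9.23, 7.09 and 14.8 CPM in LPS_ES_PMMA, against 274, 329 and 306 CPM in LPS_PMMA. NONMMUT117693.1 and NONMMUT117695.1, also among the 10, lie within 100 kb of it on chromosome 4 and may not be independent of it. NONMMUT117693.1 averaged 1169 ± 115 CPM in LPS_ES_PMMA and 16416 ± 1123 CPM in LPS_PMMA. It was thus a much more abundant feature than NONMMUT110310.1 with a smaller fall, at a log2 fold change of -3.81.

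ENSMUST00000201944 (chromosome 5), listed in an intron of the intramembrane protease gene Sppl3, held 3, 1 and 2 reads in LPS_ES_PMMA, against 51, 72 and 71 in LPS_PMMA. MSTRG.50491.1, in an intron of the neurotrophin receptor gene Ntrk3, held 8, 0 and 3 reads in LPS_ES_PMMA, against 77, 119 and 62 in LPS_PMMA. MSTRG.44.4, in an intron of the transcription factor gene St18, held 11, 1 and 0 reads in LPS_ES_PMMA, against 48, 83 and 119 in LPS_PMMA. The high and low libraries were the same groups in each, but the order of libraries within a group differed.

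The other members of the 10 are tied to Ifit2, Slfn8 and Als2cl or lie between genes. MSTRG.29280.1, antisense to Ifit2, whose product binds RNA and restrains translation, held 0, 2 and 0 reads in LPS_ES_PMMA, against 60, 61 and 40 in LPS_PMMA. NONMMUT084037.1, antisense to Slfn8 of the Schlafen family, held 0, 0 and 6 reads in LPS_ES_PMMA, against 198, 311 and 220 in LPS_PMMA. Its log2 fold change of -7.11 was larger in size than that of NONMMUT110310.1. MSTRG.17430.3, an intergenic transcript, held 13, 0 and 12 reads in LPS_ES_PMMA, against 161, 133 and 129 in LPS_PMMA. NONMMUT135390.1, antisense to Als2cl, had 75, 23 and 59 reads in LPS_ES_PMMA, against 520, 609 and 468 in LPS_PMMA. Gene names given for features, here and in the paragraphs above and below, are those that the table ties to them, unless a gene is said to be moved by the offset. As the coordinates of assembled and catalogued features differ in kind, the gene that gave the reads may be another one, for NONCODE and Ensembl features as for assembled ones, and this was not tested.

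**Figure D4:**
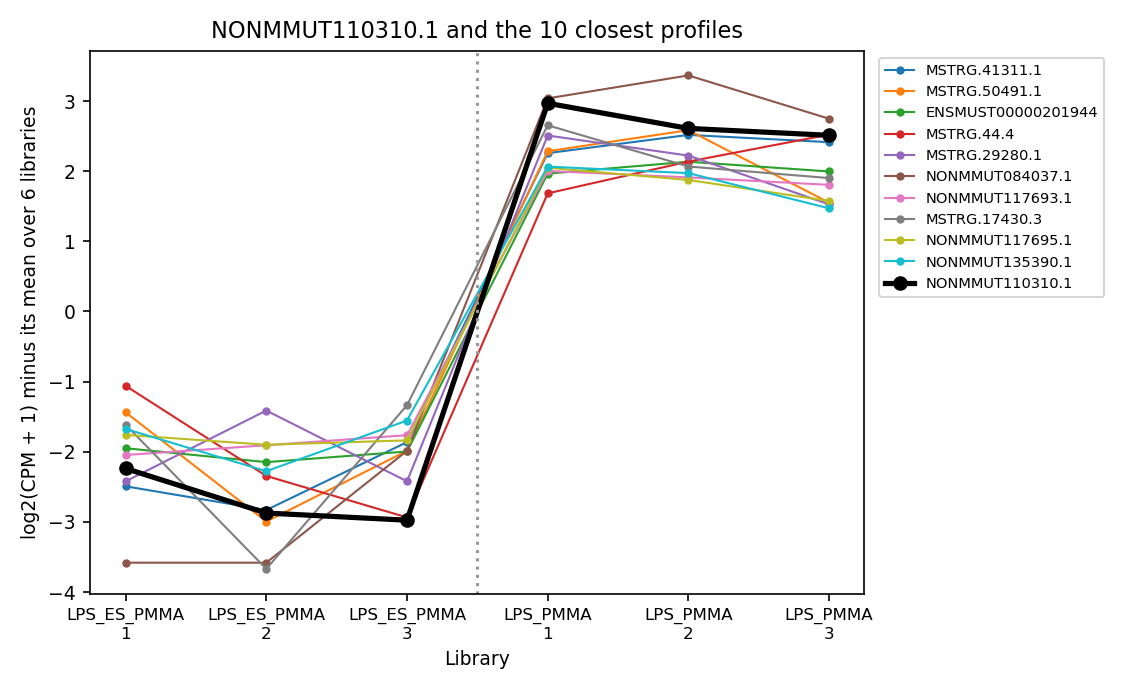
Log2(CPM + 1) minus its mean over the 6 libraries for NONMMUT110310.1 (black) and the 10 features with the closest profiles; lines only trace a feature across libraries, which have no order within a group. All 11 features lie below 0 in LPS_ES_PMMA 1 to 3 and above 0 in LPS_PMMA 1 to 3.

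Features tied to genes of the ZBP1 pathway were few, and none of those tested passed. Of 18 genes for the cell death machinery around ZBP1, 6 had at least 1 listed feature in the table's gene column, and Zbp1 and Mlkl had none. Of 7 such features 3 were tested, and 0 passed, against 4.76% called over all tested features. Their median log2 fold change was -0.43 over these 3 alone, beside 0.03 for all tested features.

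NONMMUT067955.2, in an intron of Birc3, the gene of an inhibitor of apoptosis, held 38, 32 and 61 reads in LPS_ES_PMMA, against 68, 56 and 71 in LPS_PMMA. edgeR gave it a log2 fold change of -0.82 with an SE of 0.35 and an adjusted p of 0.226, which did not pass. ENSMUST00000194726, in an intron of the apoptotic protease gene Casp8, held 163, 67 and 120 reads in LPS_ES_PMMA, against 85, 160 and 136 in LPS_PMMA. Its log2 fold change in edgeR was -0.43, its SE 0.26 and its adjusted p 0.374. It did not pass, although in CPM its groups did not overlap, at 33.9 to 40.4 in LPS_ES_PMMA and 41.8 to 63.0 in LPS_PMMA. Those of the Birc3 feature did not overlap either, at 9.23 to 20.6 CPM in LPS_ES_PMMA and 22.0 to 33.4 CPM in LPS_PMMA. The same held for 30.8% of all tested features. NONMMUT001062.2, over an exon of the caspase-8 regulator gene Cflar, had 19, 5 and 6 reads in LPS_ES_PMMA, against 5, 11 and 10 in LPS_PMMA. Neither group stood apart in it (adjusted p from edgeR = 0.893). NONMMUT021015.2, antisense to the kinase gene Ripk3, held 6, 8 and 6 reads in LPS_ES_PMMA, against 8, 7 and 11 in LPS_PMMA, too few to be tested with the filter, and NONMMUT001063.2, bidirectional with Cflar, held 7, 2 and 3 reads in LPS_ES_PMMA, against 9, 9 and 6 in LPS_PMMA. The last 2 of the 7 features, also removed by the filter, were added after their values were seen and had more reads in LPS_ES_PMMA. ENSMUST00000205745, antisense to the inflammasome adaptor gene Pycard, held 10, 5 and 6 reads in LPS_ES_PMMA, against 0, 5 and 5 in LPS_PMMA. In CPM its groups did not overlap, with LPS_ES_PMMA higher, and those of NONMMUT001063.2 did not overlap, with LPS_ES_PMMA lower. ENSMUST00000097928, antisense to the death receptor adaptor gene Fadd, held 1, 0 and 3 reads in LPS_ES_PMMA and no reads in LPS_PMMA.

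Of 18 genes that induce interferon or signal from its receptor, 6 had a listed feature, 3 of these features were tested, and 1 rose and none fell, where 4.76% of all tested features were called and 2.18% were called higher. NONMMUT150657.1, bidirectional with Usp18, the gene of a protease that removes ISG15 and restrains interferon receptor signalling, held 90, 35 and 60 reads in LPS_ES_PMMA, against 7, 13 and 16 in LPS_PMMA. edgeR put its rise at 2.04 on the log2 scale, with an SE of 0.30 and an adjusted p of 0.0159. That call was lost without LPS_ES_PMMA 1, LPS_ES_PMMA 3, LPS_PMMA 2 or LPS_PMMA 3 (adjusted p from edgeR 0.0502 to 0.0893), and with the replicate block (0.0872). MSTRG.6909.1, in an intron of the transcription factor gene Stat2, held 115, 26 and 66 reads in LPS_ES_PMMA, against 29, 52 and 45 in LPS_PMMA. NONMMUT144713.1, antisense to the interferon receptor gene Ifnar1, held 61, 29 and 46 reads in LPS_ES_PMMA, against 26, 35 and 30 in LPS_PMMA. Neither passed, with log2 fold changes of 0.32 (SE 0.34) and 0.27 (SE 0.25) and adjusted p from edgeR of 0.621 and 0.577. In CPM the groups of the Ifnar1 feature did not overlap, at 14.7 to 15.5 in LPS_ES_PMMA and 10.8 to 13.8 in LPS_PMMA. Features tied to Irf1, Socs1 and Tlr3 held 0 to 7 reads per library and were removed by the filter.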

How the data were processed

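Per the file headers, the deposited table gives for each lncRNA transcript the authors' whole-number read counts and FPKM in 6 libraries, the group mean FPKM, a log2 fold change, and p-values and q-values of the authors' own comparison, for which the deposited table's name gives edgeR, without version or design. Length and position columns, deposited by the authors, complete it, and other numeric columns numbered 0. Names of the aligner and counter, and the strand setting, were not given in the sources used here. Build mm10 comes from the submitters' processing notes.

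Columns were tied to samples by descriptions and titles. Features were filtered with filterByExpr (minimum count 10, minimum total 15), scaled by TMM, and LPS_ES_PMMA was compared with LPS_PMMA by edgeR 4.0.16's quasi-likelihood F-test in R 4.3.3 without covariates, with Benjamini-Hochberg adjustment over 8873 features and a threshold of 0.05. Features that failed the filter take their values from an unfiltered fit. SEs were obtained by dividing the absolute log2 fold change by √F. The fit was tested on simulated data. DESeq2 1.42.0, limma 3.58.1 on log2(FPKM + 0.1) and log2(FPKM + 1), other scalings, left-out libraries, a replicate block and windows of 100 and 500 kb were alternatives. Chi-square per degree of freedom between replicates was 15.4 to 45.5, so none was a duplicate library. Features were named by rule: NONMMUT110310.1, the neighbours that passed the filter, were nearest on each side or lay at the edge of the window, the nearest feature outside it, the 10 closest profiles, and list features past the threshold or among the 5 of highest mean FPKM. The remaining neighbours were named after their values were seen. The feature, the lists and this rule were chosen with earlier results of these data known. Intervals and floors (3 reads) reflect counting error alone, because PCR copies cannot be told from separate molecules here.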

Additional observations from a re-analysis of the deposited data

How the results depend on the processing

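NONMMUT110310.1 was lower in LPS_ES_PMMA under all 14 alternatives run. Its log2 fold change (main value -5.87) was -5.09 with column totals, -5.38 with library totals implied by FPKM and -4.95 with limma on log2(FPKM + 1), where the pseudocount shrinks low values, and -6.34 to -5.69 when a library was left out. Calls over all features numbered 422 (193 higher, 229 lower), 174 without the filter, which tests more features, and 50 to 136 without 1 library. The split of higher and lower calls was 302 and 68 with column totals, 230 and 94 with totals implied by FPKM, 191 and 368 with DESeq2, 207 and 90 with limma on log2(FPKM + 0.1) and 415 and 133 on log2(FPKM + 1). Neighbours called numbered 0, and 1 without the filter, with DESeq2, with totals implied by FPKM (NONMMUT041526.2, lower) and with a window of 500 kb (NONMMUT108491.1, higher). No pairing of the libraries by replicate number was visible: same-numbered deviations from the group means correlated at -0.020, -0.025 and -0.093. Unlike-numbered ones correlated at -0.072 to 0.105. With 3 libraries per group this does not show that the libraries were unpaired. With the replicate block, 41 features were called, NONMMUT110310.1 stood at -5.96, and no neighbour was called. The sum over the neighbours (-1.34), with NONMMUT041526.2 included, stayed below 0 in each alternative, at -0.53 with column totals and -1.64 to -0.98 without 1 library. The median of all features was 0.03, but 0.82 with column totals, 0.45 with totals implied by FPKM, and 0.47 and 0.35 with limma at pseudocounts 0.1 and 1. The Casp8 feature ENSMUST00000194726 turned to 0.33 with column totals and to 0.028 and 0.019 with limma. The Cflar feature NONMMUT001062.2 turned to 0.59 with column totals, 0.30 with totals implied by FPKM, 0.20 and 0.12 with limma, and -0.62 to 0.053 when a library was left out (above 0 without LPS_ES_PMMA 3). In each of these scalings and limma fits both remained below that median, by 0.33 or more for Casp8 and 0.15 or more for Cflar. A change of scaling shifts all features nearly alike, so this is no test of either feature. Without LPS_ES_PMMA 3 the Cflar feature lay 0.022 above the median. Of the 7 neighbours, 6 failed the filter on counts, so their values rest on few reads.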
